A study of Mus musculus with 2 samples.

Results

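The 32 genes described here encode the folding machinery of the endoplasmic reticulum (ER), the sensors and effectors of the unfolded protein response, and the first steps of protein export. They are a list of gene names, with no measured value in its rule, out of 20660 genes that could be named on the arrays, and the list was drawn up with earlier results of these data known. Each gene was read from its brightest probe. Total RNA came from primary chondrocytes, the cartilage-forming cells, of 6-day-old C57BL/6J mice. The cells were grown for 48 h in silicon chambers coated with fibronectin, and cyclic tensile strain was then applied with 10% elongation at 0.5 Hz for 30 min. One array held RNA taken before the loading and the other held RNA taken 24 h after it, so that there was 1 array per time point. The differences therefore have no replicate error, and neither tests nor p-values are given. Cells before loading served as the control. Neither of the 2 arrays held RNA of unloaded cells at 24 h, so the effect of strain and that of a further day in culture cannot be told apart. In bulk RNA, fewer cells of a type and less RNA per cell cannot be told apart either. The sources used here do not say how many animals were pooled.

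Secreted and membrane proteins enter the ER through the Sec61 channel, are folded there by chaperones and disulfide isomerases, and leave in COPII-coated vesicles. When unfolded proteins accumulate, the membrane sensors IRE1, PERK and ATF6 set off the unfolded protein response, which raises the transcription of chaperones and of the degradation machinery and slows translation. Chondrocytes secrete large amounts of collagen and proteoglycan, and procollagen is a bulky cargo that needs dedicated helpers to leave the ER.

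The processed signal of a spot, in arbitrary intensity units after background subtraction, was set against the 75th percentile of its array, which lay at 466.37 before loading and 466.15 at 24 h. The log2 ratio is the value at 24 h minus the value before loading, so a positive value means a higher signal at 24 h. The scanner software's own error of both spots was combined into a within-array error of the log2 ratio, which lay between 0.204 and 0.212 for the 32 genes and says nothing of the spread between cultures. The software placed 59.14% of 59305 spots well above background on the array taken before loading and 57.66% on the other, and 0 of the spots were saturated. In all, 14222 genes were detected, meaning that their brightest probe was well above background on both arrays, and the shares given below for all genes are over these. The labelled cell type was checked against markers: 15 of 15 chondrocyte genes were detected, and their summed signal had a log2 ratio of 0.015 between the arrays. Col2a1 gave the largest part of that sum, 499543 of 1507830 before loading. Single chondrocyte genes ran from -0.86 for Chad to 0.56 for Matn1, with 10 above and 5 below 0, and Col11a1 stood at -0.82. Of the other cell types checked, all 9 fibroblast genes were detected, with a log2 ratio of the summed signal of -0.07, and 2 of 6 genes on the array that mark plasma cells, which are professional secretory cells. The plasma cell markers Jchain, Mzb1, Irf4 and Tnfrsf17 were not well above background on both arrays. Detection was also incomplete for markers of macrophages (5 of 7), endothelium (3 of 6), erythroid cells (2 of 5), skeletal muscle (5 of 7) and osteoblasts (4 of 5). Some marker sums differed between the arrays. The summed osteoblast signal had a log2 ratio of -0.98, with all 4 detected genes below 0 and Ibsp lowest at -2.06. The sum of the plasma cell list had a log2 ratio of 0.47. Most of that sum was Sdc1, with 1036 of 1211 before loading and 1478 of 1675 at 24 h, a log2 ratio of 0.51. For macrophages, endothelium, erythroid cells and skeletal muscle the log2 ratios of the sums were -0.06, -0.04, 0.003 and -0.18. Kdr gave 12774 of 12972 of the endothelial sum before loading, and Csf1r gave 3646 of 4229 of the macrophage sum. Each of these 2 sums thus mostly reads 1 gene. Single detected genes spread more widely than these sums. Macrophage genes ran from -0.15 (Csf1r) to 1.14 (Ptprc, with signals of 21 and 46) and endothelial genes from -0.48 (Vwf) to 0.23 (Pecam1). Muscle genes ran from -0.78 (Tnnt3) to 1.15 (Myh8), and erythroid genes from -0.12 (Hba-a1) to 0.13 (Epor). The part of these cells in the values below was not tested. All 16 cell cycle genes of a list were more than 2-fold lower at 24 h, where 1.83% of all detected genes were. Their summed signal was 44729 before loading and 10261 at 24 h. This list was chosen with earlier results of these data known, so the count is no independent result. The part of the cell cycle genes in the values below was not tested.

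All 32 secretory pathway genes were detected, and their signals ranged from 142 to 94717 before loading and from 198 to 78973 at 24 h. None of them changed by as much as 1.5-fold. The number more than 1.5-fold higher was 0 of 32, where 3.66% of all detected genes passed that fold, and the number more than 1.5-fold lower was 0 of 32, where 5.84% of all genes did. At 2-fold the counts were again 0 in each direction, against 0.668% of all genes higher and 1.83% lower. The highest log2 ratio was 0.48 for Hyou1 and the lowest was -0.28 for P4hb, which correspond to 1.39-fold higher and 1.21-fold lower signals.

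Within that narrow range, 22 of the 32 genes had a log2 ratio above 0 and 10 below 0, where 47.6% of all detected genes were above 0. Their median was 0.10, with quartiles of -0.06 and 0.27, and the median over all detected genes was -0.01, with quartiles of -0.19 and 0.16. A difference larger than the within-array error was found in the higher direction for 12 genes, or 37.5%, where 20.1% of all genes were that much higher. In the lower direction it was found for 5 genes, or 15.6%, where 22.7% of all genes were. The size of the difference without its sign had a median of 0.21 for the 32 genes and 0.18 for all genes. Under 9 alternative settings between 21 and 26 genes were above 0. Hspa5, Serp1, Sel1l, Sec61a1 and Creb3l2 changed sign under at least 1 of these settings.

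**Figure D1:**
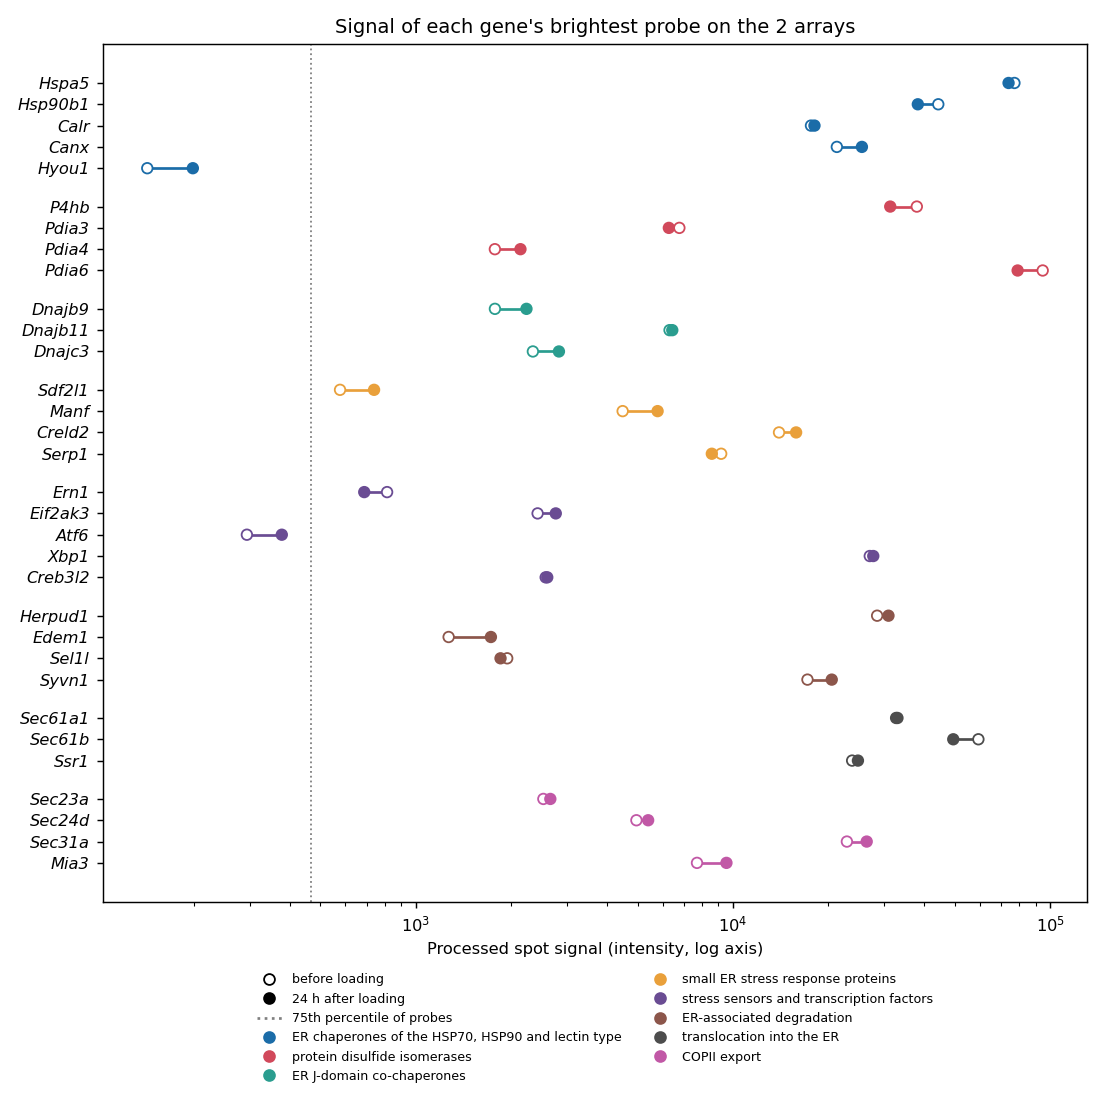
Processed signal (intensity, log axis) of the brightest probe of each of the 32 genes, before loading (open circles) and 24 h after (filled circles), with a line joining both values of a gene and genes coloured by role. The dotted line is the 75th percentile of the probes, and only Hyou1 and Atf6 lie below it on both arrays; the longest lines are those of Hyou1, from 142 to 198, and Edem1, from 1269 to 1724.

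Many chaperone genes carry a short promoter element through which the unfolded protein response acts. The windows of RefSeq (GRCm38.p6, 300 bases, of which 250 lie before the transcription start) were searched for it, and 28 of the 32 genes have a window there. No window was found for Manf, Sec61a1, Atf6 and Hyou1. The ER stress response element (ERSE), known to be bound by ATF6 together with NF-Y, was searched on both strands as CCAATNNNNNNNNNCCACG, with N for any base. It was present for 8 of the 28 genes with a window (28.6%), namely Hspa5, Hsp90b1, Calr, Canx, Pdia6, Dnajc3, Creld2 and Syvn1. Of all 27025 genes with a window 37 held it (0.137%), in 39 of all 32851 promoter windows (0.119%). The 8 members are among these 37 genes. The members were listed for their known part in ER folding and its stress response, through which this element acts. The difference between the shares is therefore no test and no result of these data. The 9 sites of these 8 genes are printed below because they mark the members that share the element while differing in their log2 ratios. The sequence runs 5′ to 3′ on the strand of the gene, with the element in capitals, and a site on the opposite strand reads CGTGG first and ATTGG last.
Hspa5, chr2:34772013-34772055 (+): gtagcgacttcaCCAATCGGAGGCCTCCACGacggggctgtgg
Hsp90b1, distal site, chr10:86705626-86705668 (-): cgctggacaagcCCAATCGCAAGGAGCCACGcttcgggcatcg
Hsp90b1, proximal site, chr10:86705521-86705563 (-): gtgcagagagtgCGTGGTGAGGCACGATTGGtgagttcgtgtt
Calr, chr8:84847063-84847105 (-): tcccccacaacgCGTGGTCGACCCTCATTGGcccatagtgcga
Canx, chr11:50325788-50325830 (-): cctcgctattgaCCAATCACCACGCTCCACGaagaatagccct
Pdia6, chr12:17266479-17266521 (+): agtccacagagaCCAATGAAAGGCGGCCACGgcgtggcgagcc
Dnajc3, chr14:118937815-118937857 (+): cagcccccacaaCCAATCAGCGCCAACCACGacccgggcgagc
Creld2, chr15:88819508-88819550 (+): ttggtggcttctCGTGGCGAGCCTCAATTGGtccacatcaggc
Syvn1, chr19:6046520-6046562 (+): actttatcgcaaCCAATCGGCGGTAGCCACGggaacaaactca

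The 8 genes with an ERSE lay on both sides of 0. Their log2 ratios ran from -0.26 for Pdia6 to 0.27 for Dnajc3, with 5 above and 3 below 0 and a median of 0.11. The 20 genes whose window held no such match ran from -0.28 to 0.44, with 14 above and 6 below 0 and a median of 0.07. Hsp90b1, the only one of the 8 with a pair of sites, had a negative log2 ratio of -0.21. The related element ERSE-II, searched as ATTGGNCCACG, was found for Herpud1 and Dnajb11, or 7.14% of the 28 genes, and for 12 of all genes with a window (0.0444%). The Dnajb11 match lay after the transcription start and is not printed. The Herpud1 site lay at chr8:94386365-94386399 (+), shown with the match in capitals because Herpud1 is the classical target of this element.
Herpud1, ERSE-II: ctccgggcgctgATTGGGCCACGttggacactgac
The core of the unfolded protein response element, TGACGTGG, was found for the COPII genes Sec23a and Sec24d, or 7.14% of the 28 genes, and for 193 of all genes with a window (0.714%). The Sec23a match lay after the transcription start and that of Sec24d before it. All 3 motifs share the letters CCACG or their reverse complement CGTGG, but none of the 28 genes with a window held more than 1 of the motifs. A match is a description of the letters in the window. For these motifs too the shares of all genes include the members, and their comparison is no test.

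Among the large chaperones the bright probes changed little. Hspa5 encodes BiP, the HSP70 of the ER lumen that holds the stress sensors inactive, and its signal was 77148 before loading and 73937 at 24 h, a log2 ratio of -0.06. Hsp90b1, which encodes the HSP90 of the ER (GRP94), had signals of 44387 and 38263, a log2 ratio of -0.21. Of these 5 chaperones it was the only one lower by more than the within-array error, under the scaling to the 75th percentile. Calr and Canx encode calreticulin and calnexin, the soluble and the membrane-bound lectin chaperone of glycoproteins. For Calr the signal was 17615 before loading and 18067 at 24 h, a log2 ratio of 0.04. For Canx it was 21254 and 25494, a log2 ratio of 0.26. The partners of the calnexin cycle thus had log2 ratios on the same side of 0, and only that of Canx exceeded the within-array error. Hyou1 encodes GRP170, the nucleotide exchange factor of BiP. Its signal was 142 before loading and 198 at 24 h, which gave a log2 ratio of 0.48 and an error of 0.21, and both values lay below the 75th percentile. The median of the 5 chaperones was 0.04.

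Protein disulfide isomerases, which form and rearrange disulfide bonds, were the members with the most negative median, -0.19 over 4 genes. P4hb encodes the classical isomerase, which is also the beta subunit of prolyl 4-hydroxylase in collagen synthesis, and its signal was 37981 before loading and 31314 at 24 h, a log2 ratio of -0.28. Pdia6 had signals of 94717 and 78973, a log2 ratio of -0.26. Pdia3, the isomerase that works with calnexin and calreticulin on glycoproteins, had signals of 6774 and 6277, a log2 ratio of -0.11. These 3 genes were thus lower at 24 h, P4hb and Pdia6 by more than the within-array error. With median or spike-in scaling neither P4hb nor Pdia6 exceeded that error. Pdia4 differed from them, with signals of 1775 and 2137 and a log2 ratio of 0.27. A second, dimmer probe of Pdia6 had a log2 ratio of 0.08, on the other side of 0 from the brightest probe.

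The J-domain co-chaperones stimulate the ATPase of BiP, and all 3 had log2 ratios above 0. Dnajb9 encodes ERdj4, a target of the IRE1 branch that also restrains IRE1, and its signal was 1775 before loading and 2232 at 24 h, a log2 ratio of 0.33. Dnajc3 encodes P58IPK, an inhibitor of PERK, and had signals of 2339 and 2826, a log2 ratio of 0.27. Both exceeded the within-array error. Dnajb11 encodes ERdj3, which delivers substrates to BiP, and its signals of 6309 and 6435 gave a log2 ratio of 0.03. A second probe of Dnajb11 was not well above background on both arrays and gives no ratio.

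Of the 4 small proteins induced by ER stress, 3 were above 0 and the median was 0.27. Sdf2l1, a partner of ERdj3, had signals of 577 before loading and 738 at 24 h, a log2 ratio of 0.36. Manf, a secreted protein that binds BiP, had signals of 4488 and 5784, a log2 ratio of 0.37. Creld2 encodes an ER protein with EGF-like domains that is secreted under ER stress, and its signal was 13967 before loading and 15813 at 24 h, a log2 ratio of 0.18. Creld2 is the one member whose probe was printed as repeated spots, and its 10 spots give a technical spread. Before loading the lowest spot was at 12913, the median at 13862 and the highest at 15257, and at 24 h these were 15069, 15837 and 16626. The log2 ratio was above 0 in 10 of 10 spots, from 0.12 to 0.26 with an SD between spots of 0.04, although the highest spot before loading was brighter than the lowest at 24 h. The spots of Creld2 were thus closer together than the software's error of 0.204 states, and over the 259 detected probes with at least 8 spots the median SD was 0.08. Serp1, which stabilises membrane proteins next to the translocon, had signals of 9177 and 8574, a log2 ratio of -0.10.

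**Figure D2:**
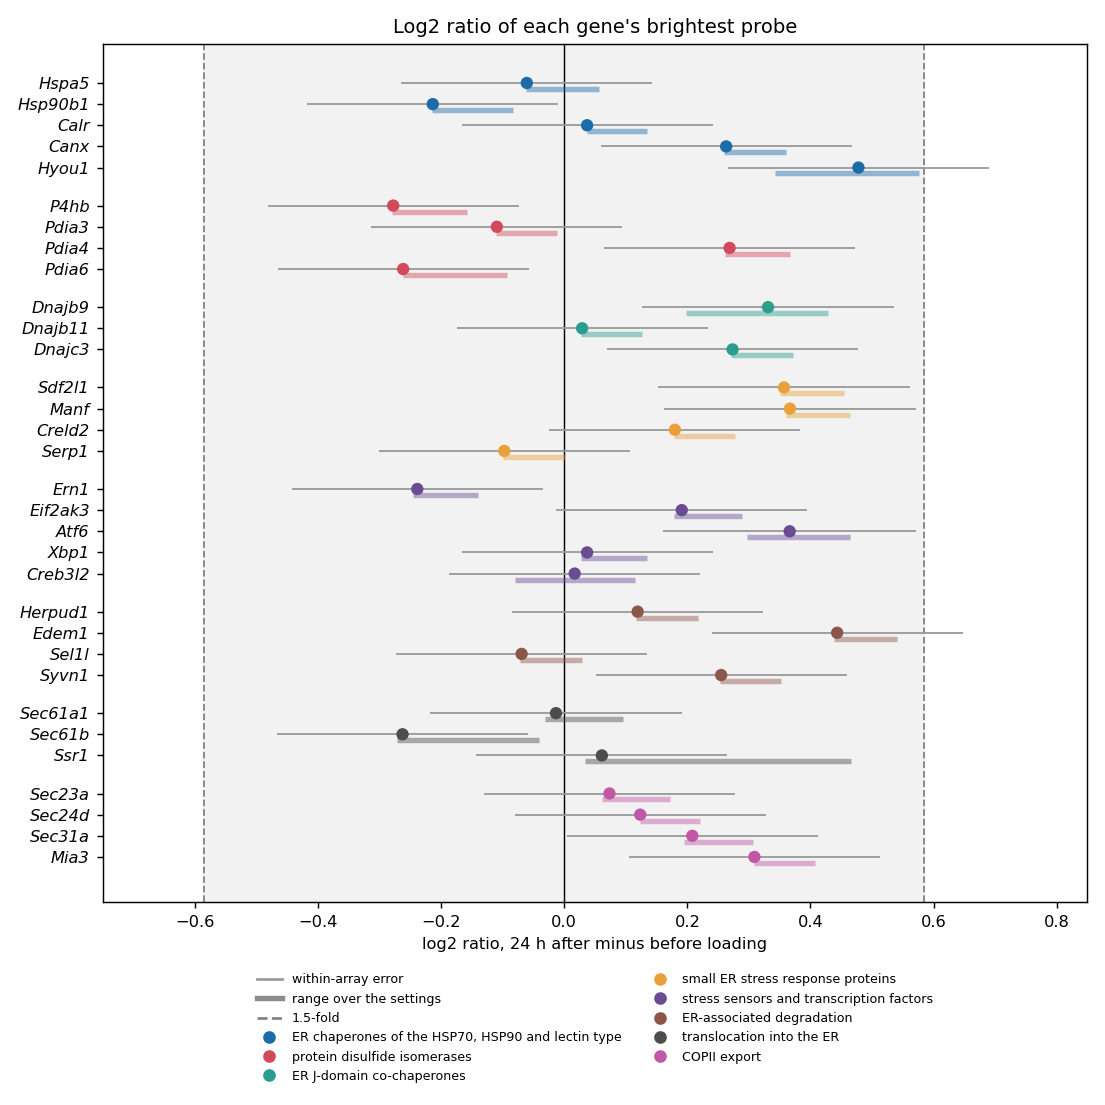
Log2 ratio (24 h after minus before loading) of the brightest probe of each gene by role, with the within-array error as a thin line, the range over the 9 alternative settings and the reported one as a thick bar, and the 1.5-fold limits as dashed lines. Every point lies inside the limits, from -0.28 for P4hb to 0.48 for Hyou1, and all J-domain co-chaperones and COPII genes lie to the right of 0.

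The sensors differed in sign among themselves. Ern1 encodes IRE1, the kinase and endoribonuclease that splices Xbp1 mRNA, and its signal was 812 before loading and 688 at 24 h, a log2 ratio of -0.24. Eif2ak3 encodes PERK, the kinase that phosphorylates eIF2 alpha, and had signals of 2421 and 2762, a log2 ratio of 0.19. Atf6 encodes the sensor that is cut in the Golgi to release a transcription factor, and had signals of 293 and 378, a log2 ratio of 0.37. Ern1 was thus lower and Atf6 higher by more than the within-array error, while Eif2ak3 stayed within it. With median scaling Ern1 stood at -0.14, inside that error, and Eif2ak3 at 0.29, past it. Downstream factors differed less between the arrays. Xbp1, whose spliced form is the transcription factor of the IRE1 branch, had signals of 26994 and 27685, a log2 ratio of 0.04, and an array signal does not tell its spliced from its unspliced form by itself. Creb3l2 encodes BBF2H7, a factor known from cartilage as an activator of Sec23a, and had signals of 2567 and 2596, a log2 ratio of 0.02. The 5 sensors and factors had a median of 0.04.

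ER-associated degradation removes proteins that fail to fold, and 3 of its 4 members were above 0. Edem1, a mannosidase-like protein that hands misfolded glycoproteins to the degradation machinery, had signals of 1269 before loading and 1724 at 24 h, a log2 ratio of 0.44 or 1.36-fold, the second highest of the 32. Syvn1 encodes HRD1, the ubiquitin ligase of the pathway, and had signals of 17171 and 20481, a log2 ratio of 0.26. Herpud1, which recruits that ligase complex, had signals of 28476 and 30917, a log2 ratio of 0.12. Sel1l, the adaptor and stabiliser of HRD1, had signals of 1941 and 1849, a log2 ratio of -0.07. The ligase and its adaptor therefore had opposite signs, Syvn1 past the within-array error and Sel1l inside it.

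Translocation genes had a median of -0.01. Sec61a1 encodes the pore of the channel, and its signals of 32999 before loading and 32682 at 24 h gave a log2 ratio of -0.01. Sec61b encodes the small beta subunit and had signals of 59393 and 49484, a log2 ratio of -0.26. Ssr1, the alpha subunit of the translocon-associated complex TRAP, had signals of 23750.4 and 24768, a log2 ratio of 0.06. Sec61a1 and Sec61b were thus below 0, although Sec61a1 lay above 0 with median, spike-in, quantile or loess scaling. The remaining subunit of the channel, Sec61g, is no member and was named after its values were seen, with signals of 58003 and 51636 and a log2 ratio of -0.17. The reading also depended on the probe for Sec61b and Ssr1. The dimmer probe of Sec61b had signals of 4592 and 5200.1, a log2 ratio of 0.18. For Ssr1 the dimmer probes gave 0.46, with signals of 324 and 445, and 0.88, with signals of 331 and 609. The latter was the one probe among those detected for the 32 genes that passed 1.5-fold.

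COPII genes, which build the coat and load the cargo of vesicles leaving the ER, were all above 0, with a median of 0.17. Sec23a, a subunit of the inner coat, had signals of 2524 before loading and 2655 at 24 h, a log2 ratio of 0.07. Sec24d, the inner coat subunit that selects cargo, had signals of 4959.5 and 5401, a log2 ratio of 0.12. Both stayed inside the within-array error. Sec31a, of the outer coat, had signals of 22862 and 26397, a log2 ratio of 0.21. Mia3 encodes TANGO1, the receptor that loads procollagen into large carriers, and had signals of 7699.9 and 9535, a log2 ratio of 0.31. Second probes had the same sign, with log2 ratios of 0.33 for Sec31a and 0.44 for Mia3. Among 16 collagen genes, the cargo of this route, 8 were above 0 and 8 below, with a median of -0.01.

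A total of 6 members had more than 1 detected probe, and these gave 7 dimmer probes beside the brightest. The dimmer probe had the higher log2 ratio in 6 of the 7 (85.7%), with a median difference of 0.34. Over all 3635 detected genes with several such probes, the dimmer one was higher for 2205 of 4338 probes (50.8%), with a median difference of 0.0036. The exception was Dnajb9, whose second probe had signals of 98.4 and 102.9 and a log2 ratio of 0.06 against 0.33. Pdia6 and Sec61b changed sign between their probes. Probes of one gene can read different transcript forms, and this was not tested.

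**Figure D3:**
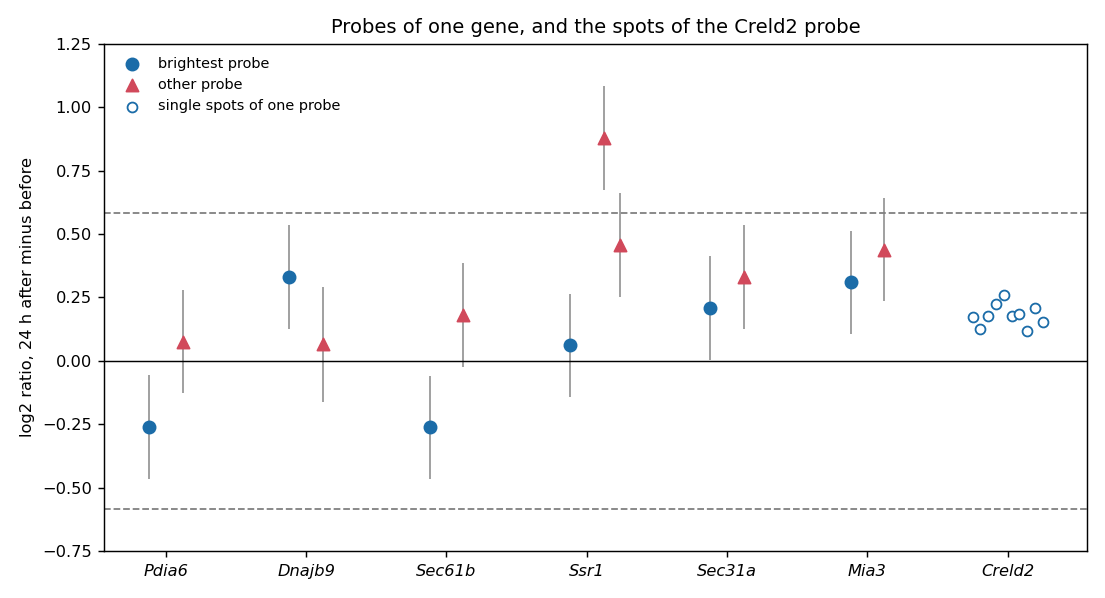
Log2 ratio (24 h after minus before loading) of the brightest probe (blue circles) and of each other detected probe (red triangles) of the 6 genes that have several, with within-array errors as bars, and of the 10 single spots of the Creld2 probe (open circles). The dimmer probe is the higher one for every gene except Dnajb9, the highest value is 0.88 for an Ssr1 probe, and the Creld2 spots lie between 0.12 and 0.26. Dashed lines mark 1.5-fold.

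The log2 ratio of the members also varied with the brightness of the spot. Across the 32 genes, Spearman's rho between the log2 ratio and the mean log2 level was -0.59 and Pearson's r was -0.56. Across all 14222 genes these were 0.04 and 0.04. Genes are not independent replicates, all points share the same pair of arrays, and the mean level holds both values of the ratio, so the correlation is a description. The brightest decile of all genes held 14 of the 32 members. In that decile the median of all genes was -0.04, with 59.5% of them below 0, and the members there had a median of 0.04, with 6 of 14 below 0. Hsp90b1, P4hb, Pdia6 and Sec61b lay in it and were 0.17, 0.23, 0.22 and 0.22 below its median on the log2 scale. Canx, Syvn1, Sec31a and Creld2 lay in the same decile and were 0.31, 0.30, 0.25 and 0.22 above it. Members of the brightest decile were thus found on both sides of its median. Whether brightness plays a part in the pattern of the 32 genes was not tested.

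**Figure D4:**
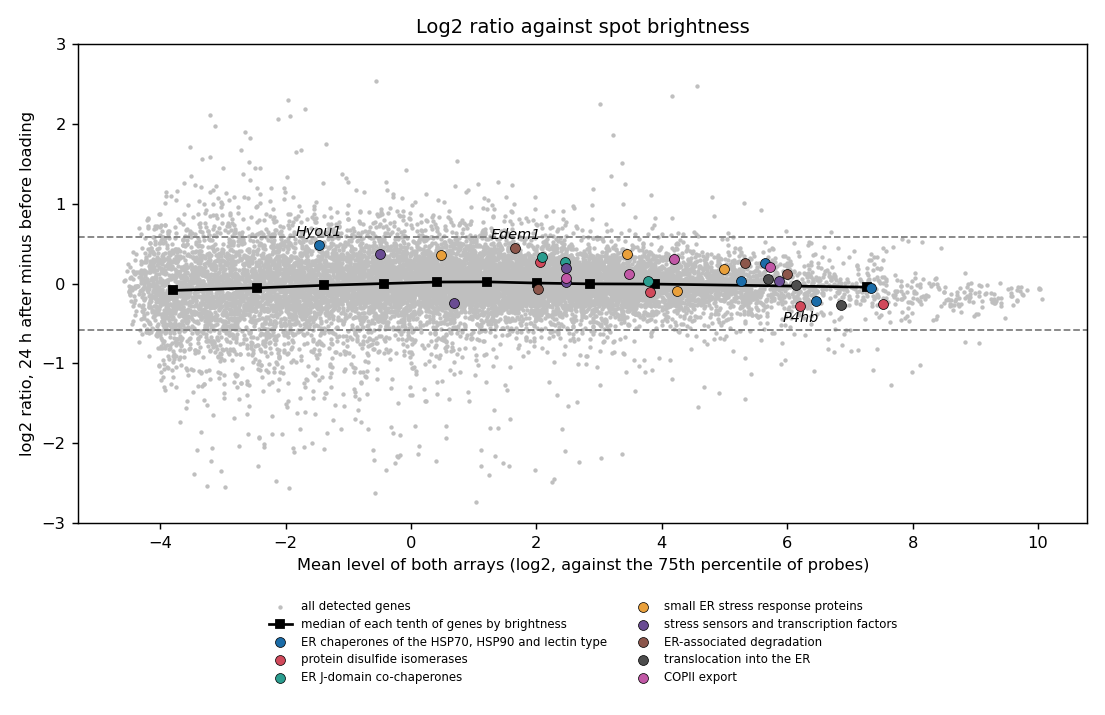
Log2 ratio (24 h after minus before loading) against the mean log2 level of both arrays relative to the 75th percentile, for all 14222 detected genes (grey) and the 32 members (coloured by role), with the median of each decile of the genes as black squares and 1.5-fold as dashed lines. The medians stay between -0.09 and 0.02, Hyou1 and Edem1 lie above them at 0.48 and 0.44, and P4hb lies below at -0.28.

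The wider pathway was read from 5 lists of other genes, 134 in all, of which 133 were detected. Of these, 81 (60.9%) were above 0, where 47.6% of all detected genes were, and the median was 0.06. A total of 3 were more than 1.5-fold higher, against 3.66% of all genes, 2 were more than 1.5-fold lower, against 5.84%, and 0 passed 2-fold. Other folding enzymes and glycoprotein quality control had 19 of 28 genes above 0 and a median of 0.08. Its highest gene was Fkbp7, a prolyl isomerase of the ER, with signals of 3261 and 5122 and a log2 ratio of 0.65. Its lowest was Ero1a, the oxidase that supplies disulfide bonds to the isomerases, with signals of 1479 and 936 and a log2 ratio of -0.66. Erp44, which retains Ero1a in the early secretory pathway and was named after its values were seen, had a log2 ratio of 0.64. The related oxidase gene Ero1b, also named after its values were seen, had a log2 ratio of 0.21, so that the genes of disulfide formation had log2 ratios on both sides of 0, like the isomerases among the members.

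A list of other sensors, transcription factors and genes of the PERK branch stood below 0, unlike the remaining 4. Of its 21 genes, 6 were above 0 and 15 below, with a median of -0.17, and 9 of them (42.9%) were lower by more than the within-array error, where 22.7% of all genes were. In the higher direction 3 of them (14.3%) exceeded that error, where 20.1% of all genes did. The lowest was Ppp1r15a, which encodes GADD34, the phosphatase subunit that reverses the action of PERK, with signals of 32126 and 20887 and a log2 ratio of -0.62. The highest was Creb3l1, which encodes the membrane-bound factor OASIS, with a log2 ratio of 0.35. Further genes of the PERK branch were named after their values were seen. Ddit3, which encodes CHOP, had signals of 12435 and 8437 and a log2 ratio of -0.56, and Atf3 had a log2 ratio of -0.40. Trib3 had a log2 ratio of -0.26, and Atf4 one of -0.05 that lay on either side of 0 under different scalings. Over the settings Trib3 ranged from -0.31 to -0.13, while Ppp1r15a, Ddit3 and Atf3 stayed past the within-array error. Eif2s1, also named after its values were seen, was the only gene of the 9 with a second detected probe. Its brightest probe had a log2 ratio of -0.34 and the second one 0.49. With median or spike-in scaling 10 of the 21 genes were above 0. The difference between this list and the 32 members was not tested.

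The other degradation genes had a median of 0.07, with 15 of 24 above 0, from -0.45 for the ubiquitin-conjugating enzyme gene Ube2j1 to 0.45 for Ubxn4. Genes of translocation, signal peptidase and oligosaccharyltransferase had a median of 0.07, with 19 of 30 above 0. Their lowest was Rpn2, a subunit of the oligosaccharyltransferase, with signals of 73200.3 and 48843 and a log2 ratio of -0.58. The highest was Srp54a, a subunit of the signal recognition particle, with a log2 ratio of 0.59 on its brightest probe and -0.07 on a second one. Other genes of the COPII coat, cargo receptors and retrieval had a median of 0.07, with 22 of 30 above 0. They ran from -0.41 for the lectin Lman2, whose second probe was at 0.60, to 0.51 for Kdelr3, a receptor that returns chaperones such as BiP to the ER. A list of heat shock and chaperonin genes outside the ER held 19 detected genes, mostly of the cytosol, with Hspd1, Hspe1 and Hspa9 of the mitochondrial matrix and the heat shock factor gene Hsf1 among them. Of these, 5 were above 0 and 14 below, with a median of -0.10, and 0 passed 1.5-fold. The mitochondrial genes had log2 ratios of -0.20, -0.16 and -0.29, and Hsf1 had one of 0.04. With median, spike-in, quantile or loess scaling 9 of these 19 were above 0.

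**Figure D5:**
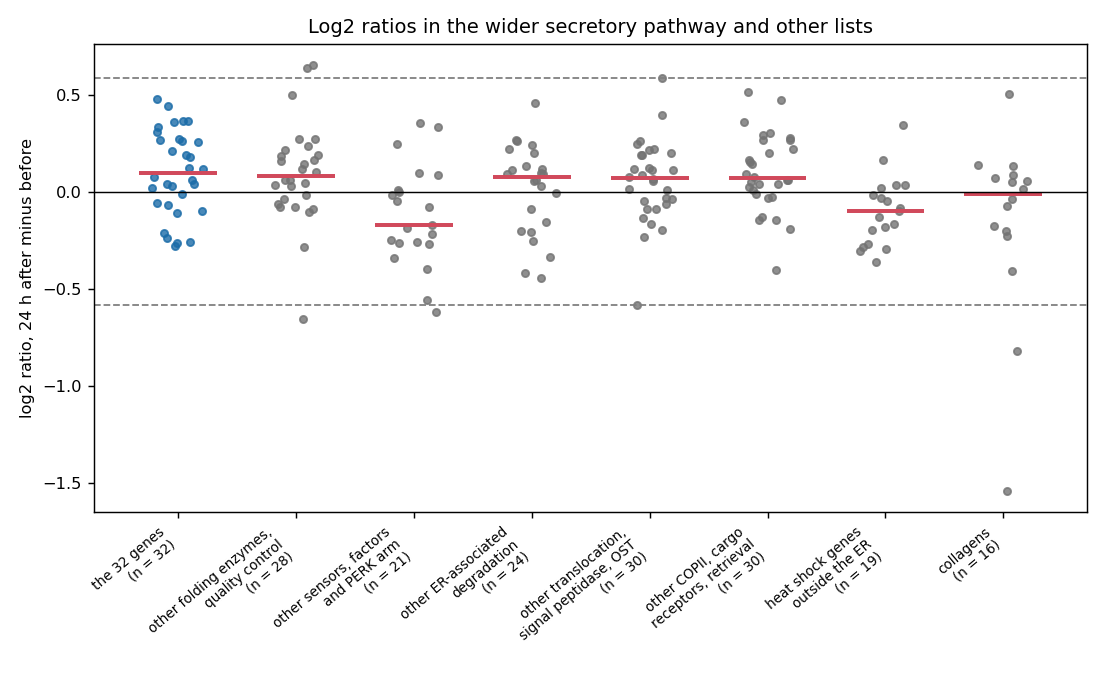
Log2 ratio (24 h after minus before loading) of each detected gene of the 32 members (blue), the 5 wider lists, heat shock genes outside the ER and collagens (grey), with the median of each list as a red bar and 1.5-fold as dashed lines. The medians lie between -0.17 for the other sensors and PERK branch and 0.10 for the 32 members, and the lowest collagen, Col10a1, is at -1.54.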

How the data were processed

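RNA labelled with Cy3 was hybridised to 2 one-colour Agilent arrays, which lay on the same slide. The deposited values are spot intensities that the authors extracted with Agilent Feature Extraction 10.10.1.1, as the submitters' processing notes state, after background subtraction and without scaling between the arrays. A deposited table repeats these intensities to within 0.497%.

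Outlier spots (141 before loading, 138 at 24 h) were removed and the log2 intensities of a probe's spots were averaged. The 75th percentile over the 55678 remaining probes was then subtracted for each array. Accessions were matched without their version to RefSeq genes (GRCm38.p6, names only), which named 27235 probes. A probe was detected if all its spots were well above background on both arrays. The 1.5-fold and 2-fold limits are conventions, since 1 array per time point gives no test. The members and all gene lists were chosen with earlier results of these data known. Named genes are all members and the highest and lowest gene of each wider list, unless marked as named after their values were seen. A total of 9 alternatives were run: median, spike-in, quantile and loess scaling (span 0.3), normexp background correction (offset 50), the mean over detected probes, no filter on dim probes, the deposited table, and leaving out areas where a spot had at least 3 changed neighbours within 100 µm. The choice of the brightest probe and the count past 1.5-fold were tried on simulated data, with noise smaller than the within-array error. The scaling, the outlier removal and the promoter search were not part of that simulation. Python 3.11.15, numpy 2.4.6, pandas 2.3.3, scipy 1.17.1, matplotlib 3.10.9, R 4.3.3 and limma 3.58.1 were used.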

Additional observations from a re-analysis of the deposited data

How the results depend on the processing

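No member passed 1.5-fold under any of the 9 alternatives, and the members' median stayed between 0.09 and 0.19. The latter value came with median scaling, where the median of all genes moved from -0.01 to 0.08. The distance between the members' median and that of all genes was 0.09 to 0.13. With normexp the highest member was Edem1 at 0.45, and Hyou1 stood at 0.34. The lowest member was Ern1 with quantile (-0.22) and loess (-0.25) scaling, in place of P4hb. With median or spike-in scaling no member was lower by more than the within-array error. Signs changed with median scaling for Hspa5, Serp1, Sel1l and Sec61a1, with spike-in scaling for Hspa5, Sel1l and Sec61a1, with quantile and loess scaling for Hspa5 and Sec61a1, and with normexp for Creb3l2. With the mean over detected probes, Ssr1 stood at 0.47 and Sec61b at -0.04, and outside the members Lman2 at 0.10 and Srp54a at 0.26. Dnajb9 (0.198) and Pdia6 (-0.09) then lay inside the within-array error. Lists read from the wider pathway were tried under alternatives chosen after seeing the data. The count of heat shock genes outside the ER above 0 was 9 in place of 5 with loess, median, quantile and spike-in scaling, and that of the other sensors and PERK branch genes was 10 in place of 6 with median and spike-in scaling. Past 1.5-fold, Fkbp7 and Erp44 remained under every alternative, and Ero1a, Ppp1r15a and Srp54a did not. Kdelr3 came to pass it with median (0.61) and spike-in (0.60) scaling, and Ddit3 (-0.59) and Rpn2 (-0.59) with normexp. No paired analysis was possible because each time point has only 1 array. The spread between cultures or animals can therefore not be estimated, and the within-array error covers neither.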
